A study of Mus musculus with 9 samples.

Results

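The interferon-stimulated antiviral genes are a module of 35 listed genes whose products sense viral nucleic acid, block its translation or replication, or attach the ubiquitin-like protein Isg15 and ADP-ribose to other proteins. They were chosen by name from knowledge of the type I interferon response, with earlier results of these data known. Of the 35, 33 had a row among the 17730 genes of the table. The other 2, Mx1 and Mx2, were not analysed here. The RNA came from wild-type (WT) astrocytes of the brains of P0 (newborn) C57BL/6 mice, given medium in which microglia had been cultured (microglia-conditioned medium, MCM). In LPS-MCM the microglia had been stimulated with lipopolysaccharide, a component of the bacterial outer membrane that Toll-like receptor 4 recognises, and in Hemin-MCM with hemin, the iron porphyrin of hemoglobin. Each of these groups held 3 libraries. The Resting-MCM group was not analysed here, so "higher" always means higher in LPS-MCM than in Hemin-MCM, and which of the groups moved from rest is not known. The labels give no dose or time and do not say whether stimulus was left in the medium, whose part in the differences was not tested. They name no separate cultures, so p-values measure only the spread between these libraries, which may be technical.

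Type I interferons bind the receptor made of Ifnar1 and Ifnar2, and the kinases Jak1 and Tyk2 then activate transcription factors, among them Stat2. With Irf9 these form a complex that binds the interferon-stimulated response element (ISRE) in the promoters of these genes. In brain, astrocytes and microglia both respond to interferon, and Toll-like receptor 4 can itself lead to interferon production through the adaptor Ticam1. Most members are kept low without interferon and are induced together by it.

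About as many members held an ISRE core near their start as did not, among those that could be searched. In the RefSeq promoter windows (GRCm38.p6, 250 bases before to 50 after an annotated start), 25 of the 33 genes had at least 1 entry, and the core of the ISRE, GAAANNGAAA on either strand with overlaps counted, was found for 13 of the 25, in 14 of their 29 windows (48.3%). Of all 32851 promoter windows of that length, 3.44% held it, and 0.225% held it more than once, which 7 members did. The 10 members with a match upstream of the start are shown as 60 bases of the gene's own strand, with the core in capitals, because they show where the core stands and where it is repeated. They were picked by an exact match to the core, so they cannot show how closely it is kept. The reverse complement, TTTCNNTTTC, is the core on the opposite strand.
Isg15 (chr4:156200860-156200919, minus strand): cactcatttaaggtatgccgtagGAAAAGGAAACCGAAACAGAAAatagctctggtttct
Ifit1 (chr19:34640769-34640828, plus strand): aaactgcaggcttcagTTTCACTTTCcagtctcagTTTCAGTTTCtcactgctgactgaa
Ifit3 (chr19:34583372-34583431, plus strand): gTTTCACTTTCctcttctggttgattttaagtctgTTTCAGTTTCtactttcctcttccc
Ifit3b (chr19:34607768-34607827, plus strand): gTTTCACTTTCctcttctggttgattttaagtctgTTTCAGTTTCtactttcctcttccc
Oas1a (chr5:120907526-120907585, minus strand): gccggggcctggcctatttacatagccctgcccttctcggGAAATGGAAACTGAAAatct
Oas3 (chr5:120777710-120777769, minus strand): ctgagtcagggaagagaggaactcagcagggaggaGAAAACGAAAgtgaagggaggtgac
Rsad2 (chr12:26456548-26456607, minus strand): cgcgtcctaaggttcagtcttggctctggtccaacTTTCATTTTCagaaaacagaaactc
Bst2 (chr8:71537572-71537631, minus strand): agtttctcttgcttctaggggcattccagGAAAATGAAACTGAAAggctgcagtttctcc
Trim30a (chr7:104465205-104465264, minus strand): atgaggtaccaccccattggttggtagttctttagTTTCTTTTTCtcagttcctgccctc
Ddx60 (chr8:61928027-61928086, plus strand): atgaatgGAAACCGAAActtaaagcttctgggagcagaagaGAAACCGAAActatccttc

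In Isg15 the match was 3 overlapping copies, and in Oas1a and Bst2 it was 2 overlapping copies. In Ifit1, Ifit3, Ifit3b and Ddx60 the 2 copies stood apart. The windows of Ifit3 and Ifit3b were identical over all 60 bases, and the 250 bases before their starts were equal at 217 of 218 aligned positions (99.5%). In Ifih1, Ddx58 and Eif2ak2 the match lay after the annotated start. No match was found in the windows of 12 genes, namely Cmpk2, Dtx3l, Herc6, Ifi35, Ifi44, Ifit2, Isg20, Oasl1, Oasl2, Samd9l, Slfn2 and Xaf1, which says only that these letters are not in these windows. The 8 genes without an entry were Oas2, Usp18, Dhx58, Rtp4, Zbp1, Parp9, Parp14 and Ifi204.

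Expression was measured as FPKM, fragments scaled to transcript length and library depth, which puts genes on a scale per length. The whole table was tested with limma on log2(FPKM + 1), over the 11688 genes that averaged 1 FPKM or more. Low values step by the worth of 1 fragment, and with transcript lengths of 194 genes with 1 annotated transcript these steps put the depth of a library near 38000000 fragments (quartiles 35200000 and 42200000), with libraries at 0.971 to 1.07 times the first LPS-MCM library. All 10 astrocyte markers were present, with summed levels of 1628 to 1661 FPKM in LPS-MCM and 1924 to 2035 FPKM in Hemin-MCM, and S100b was low, at 1.73 FPKM in LPS-MCM and 1.77 FPKM in Hemin-MCM. Of these markers 1 was higher, 5 were lower and 4 did not pass. For these and the marker counts that follow, the shares over all genes tested were 6.72% higher and 13.8% lower. The 5 endothelial markers summed to at most 1.24 FPKM in LPS-MCM and 1.26 FPKM in Hemin-MCM. Of mural and fibroblast markers 4 were tested and 2 were higher, Lum at 8.33 ± 0.973 FPKM in LPS-MCM and 3.02 ± 0.828 FPKM in Hemin-MCM and Dcn at 3.69 ± 0.571 FPKM in LPS-MCM and 2.10 ± 0.313 FPKM in Hemin-MCM (SD, n = 3 each). That list summed to 24.5 to 28.4 FPKM in LPS-MCM and 19.3 to 26.8 FPKM in Hemin-MCM. All 3 tested ependymal markers, Foxj1, Ccdc153 and Dynlrb2, were lower, and the list summed to 140.3 to 149 FPKM in LPS-MCM and 196 to 208 FPKM in Hemin-MCM. Of the tested oligodendrocyte lineage and neuron markers, 1 of 6 (Olig1) and 1 of 2 (Map2) were lower. Microglia and macrophage markers were present in both groups at unequal levels: 16 of 19 were lower in LPS-MCM and 1 (Fcer1g) was higher. Itgam and Ptprc did not pass, and no marker of this list was at 0 in all libraries. The list summed to 2207 to 2498 FPKM in LPS-MCM and 4358 to 4687 FPKM in Hemin-MCM. Most of that sum was Lyz2, at 1540 ± 106 FPKM in LPS-MCM and 3303 ± 147 FPKM in Hemin-MCM (SD, n = 3 each). Cx3cr1 was at 5.92 ± 0.401 FPKM in LPS-MCM and 34.0 ± 0.968 FPKM in Hemin-MCM (SD, n = 3 each). Microglia can express the members too, and the part of these and the other marked cells in the results that follow was not tested. In such bulk libraries, fewer cells of a type and less RNA per cell cannot be told apart.

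Nearly the whole module was higher in LPS-MCM. All 33 genes passed the filter on low values, 29 of them were higher with an adjusted p under 0.05 (limma, Benjamini-Hochberg over all 11688 genes), none was lower, and 4 did not pass: Bst2, Samd9l, Ifit2 and Cmpk2. Among all genes tested, 6.72% were called higher (786) and 13.8% lower (1614), a split that was 1023 higher and 1200 lower under median-of-ratios scaling and 995 higher and 1218 lower under quantile normalization. The median over the 33 genes was 0.40 on the log2(FPKM + 1) scale, against -0.04 over all genes tested, and the range was -0.04 to 0.82. At least 1.5-fold differences on that scale were reached by 4 members, Zbp1, Oasl1, Oas2 and Ifi44, where 1.64% of all genes did so in this direction. In 31 of the 33 genes, all 3 LPS-MCM libraries lay above all 3 Hemin-MCM libraries, which held for 12.8% of all genes. The members together made up 0.613, 0.689 and 0.645% of the summed FPKM in the LPS-MCM libraries, and 0.514, 0.497 and 0.516% in the Hemin-MCM libraries. RNA of the module was abundant in both groups, since the median member was at 44.4 FPKM in LPS-MCM and 31.5 FPKM in Hemin-MCM, where the median gene tested was at 9.83 and 10.1 FPKM.

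**Figure D1:**
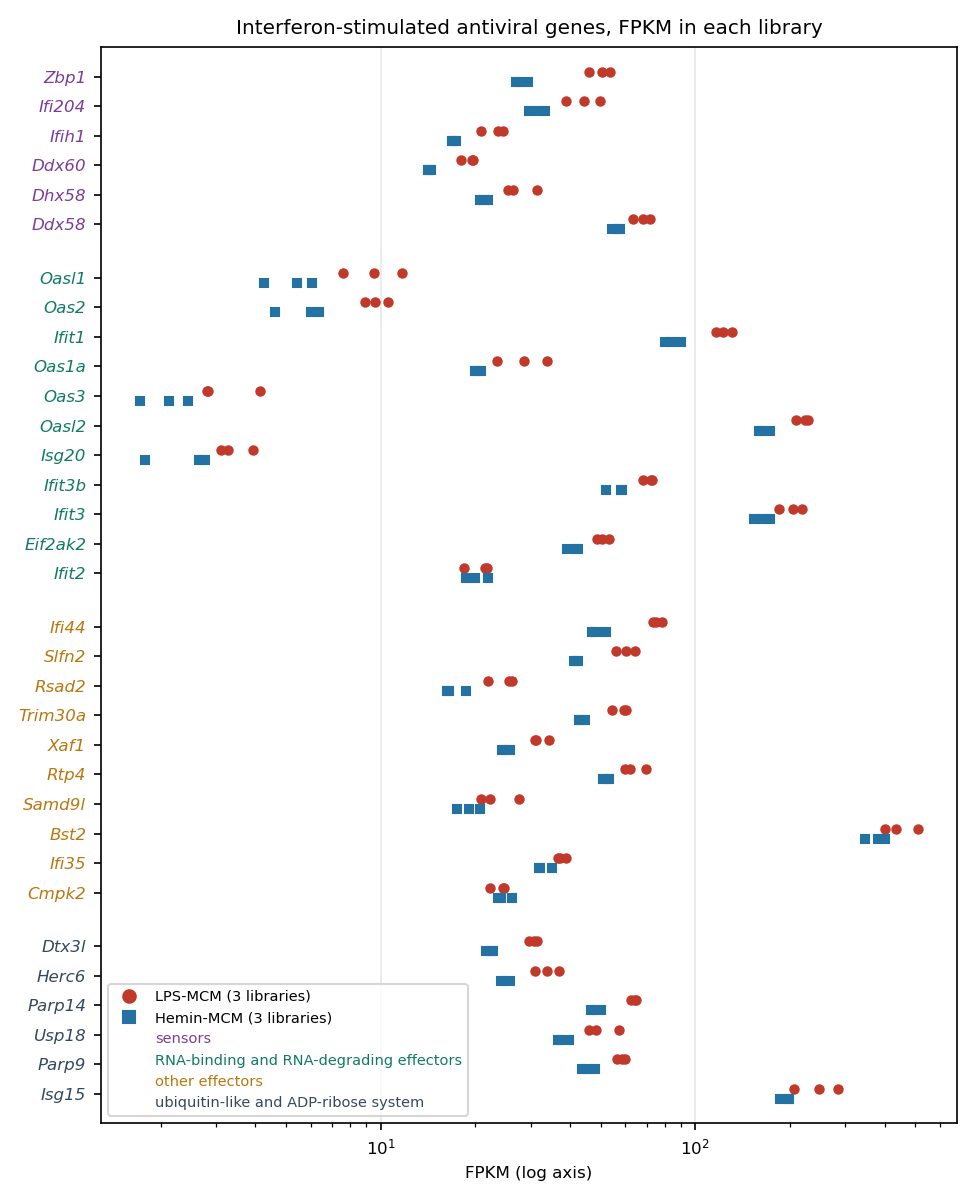
FPKM of the 33 measured members in each of the 3 LPS-MCM libraries (red circles) and the 3 Hemin-MCM libraries (blue squares) on a log axis, in order of class and difference. The red circles lie to the right of the blue squares in every gene but Ifit2 and Cmpk2, and the levels run from 1.72 FPKM (Oas3) to 511 FPKM (Bst2).

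All 6 sensors of viral nucleic acid were higher in LPS-MCM. The largest difference of the module was that of Zbp1, which binds the Z-form of nucleic acids and can start necroptosis. Zbp1 (chromosome 2, 173206612 to 173218959) was at 46.0, 53.8 and 50.6 FPKM in the LPS-MCM libraries and at 27.0, 29.4 and 27.5 FPKM in the Hemin-MCM libraries. The highest Hemin-MCM library stood far below the lowest LPS-MCM library, and the difference was 0.82 ± 0.06 (log2 scale, SE; limma adjusted p = 1.78e-05).

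The helicases that recognise viral RNA in the cytoplasm differed less. Ifih1, which encodes MDA5, a receptor for long RNA duplexes, was at 20.9, 23.7 and 24.4 FPKM in LPS-MCM and at 17.4, 16.9 and 16.8 FPKM in Hemin-MCM. Ddx58, which encodes RIG-I, a receptor for RNA with a triphosphate end, was the most abundant sensor, at 67.7 ± 4.06 FPKM in LPS-MCM and 56.3 ± 1.60 FPKM in Hemin-MCM. The groups did not overlap in either gene, with differences of 0.41 ± 0.06 for Ifih1 and 0.26 ± 0.05 for Ddx58. Dhx58 encodes LGP2, a regulator of these receptors, and differed by 0.36 ± 0.08, and the related helicase gene Ddx60 differed by 0.39 ± 0.05. Ifi204, a member of the p200 family with a role in DNA sensing, was at 38.8, 44.4 and 49.9 FPKM in LPS-MCM and at 31.6, 29.6 and 33.3 FPKM in Hemin-MCM, a difference of 0.48 ± 0.08. Its family holds close copies between which the counting can divide reads, so this value is uncertain. The limma adjusted p of these 5 genes lay between 0.000679 (Ddx60) and 0.00739 (Ddx58).

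The oligoadenylate synthetases (OAS) make short adenylate chains when they bind RNA duplexes. All of the listed genes of this family, the synthetases and the OAS-like genes, were higher in LPS-MCM. Oasl1, an OAS-like protein that in mouse represses translation of Irf7, was at 7.61, 11.7 and 9.51 FPKM in LPS-MCM and at 4.26, 5.42 and 6.04 FPKM in Hemin-MCM. Oas2 was at 8.93, 10.5 and 9.57 FPKM in LPS-MCM and at 4.63, 6.36 and 6.00 FPKM in Hemin-MCM. Both genes were low compared with the rest of the module, and in both the groups did not overlap, with differences of 0.76 ± 0.14 for Oasl1 (limma adjusted p = 0.00365) and 0.69 ± 0.10 for Oas2 (0.000957). Their differences were the second and the third largest of the module.

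Oasl2 was the abundant gene of this family, at 209, 228 and 224 FPKM in LPS-MCM and at 172, 161 and 159 FPKM in Hemin-MCM (0.42 ± 0.05, limma adjusted p = 0.000441). Oas1a differed by 0.46 ± 0.10 and spread widely within LPS-MCM, at 28.5, 33.9 and 23.5 FPKM, while Hemin-MCM held at 20.0, 20.9 and 19.9 FPKM. Oas3 was among the lowest members, at 2.80, 4.13 and 2.82 FPKM in LPS-MCM and at 1.72, 2.12 and 2.45 FPKM in Hemin-MCM. Its difference of 0.45 ± 0.13 had a limma adjusted p of 0.033, which was above 0.05 without the second LPS-MCM library (0.084), without the first (0.115) or the second Hemin-MCM library (0.0746), and when low genes were kept (0.104); the alternatives reached down to 0.0173. The log2(FPKM + 1) scale understates such low genes: with 0.1 in place of 1, the difference was 0.60 for Oas3 and 0.85 for Oasl1. Oas1a has the near-identical neighbour Oas1g, whose own difference was 0.39 ± 0.13 and did not pass (limma adjusted p = 0.0599), so reads of both may be divided between them.

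The Ifit genes, some of whose proteins bind viral RNA and hold back its translation, were higher apart from Ifit2. Ifit1, which recognises capped RNA that lacks the ribose methylation of host messages, was at 116.5, 130.4 and 123 FPKM in LPS-MCM and at 90.2, 80.2 and 84.6 FPKM in Hemin-MCM (0.53 ± 0.06, limma adjusted p = 0.000174). Ifit3, which in human cells strengthens RNA binding by Ifit1, was at 185, 219 and 205 FPKM in LPS-MCM and at 173, 154 and 163 FPKM in Hemin-MCM (0.31 ± 0.07). Its near-identical copy Ifit3b differed by 0.34 ± 0.06, and the reads of both copies can be divided between them. The call of Ifit3 (limma adjusted p = 0.0103) was lost without the second Hemin-MCM library (0.0503), and the alternatives reached down to 0.00502. Ifit2 stood at 18.4, 21.5 and 21.7 FPKM in LPS-MCM and at 19.9, 18.7 and 21.9 FPKM in Hemin-MCM. The 2 groups of Ifit2 overlapped over most of their range, and its difference of 0.02 had a 95% interval of -0.15 to 0.19, which holds no difference of the size seen for Ifit1.

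Of the remaining genes that act on RNA, Eif2ak2 encodes PKR, the kinase that stops translation when it binds RNA duplexes. It was at 48.8, 50.6 and 53.4 FPKM in LPS-MCM and at 42.3, 39.0 and 42.1 FPKM in Hemin-MCM (0.30 ± 0.05, limma adjusted p = 0.00319). The exonuclease gene Isg20 was at 3.26, 3.92 and 3.10 FPKM in LPS-MCM and at 1.78, 2.64 and 2.77 FPKM in Hemin-MCM, without overlap (0.39 ± 0.12). With the lower quartile of depth (35200000 fragments) and its longest transcript, its lowest library held an estimated 68 fragments. Counting alone gives its value there an error of 12.1%. Its call (limma adjusted p = 0.045) was lost without any 1 of 5 libraries, all but the third Hemin-MCM library (0.0506 to 0.131), and when low genes were kept (0.125), and the alternatives reached down to 0.0192.

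**Figure D2:**
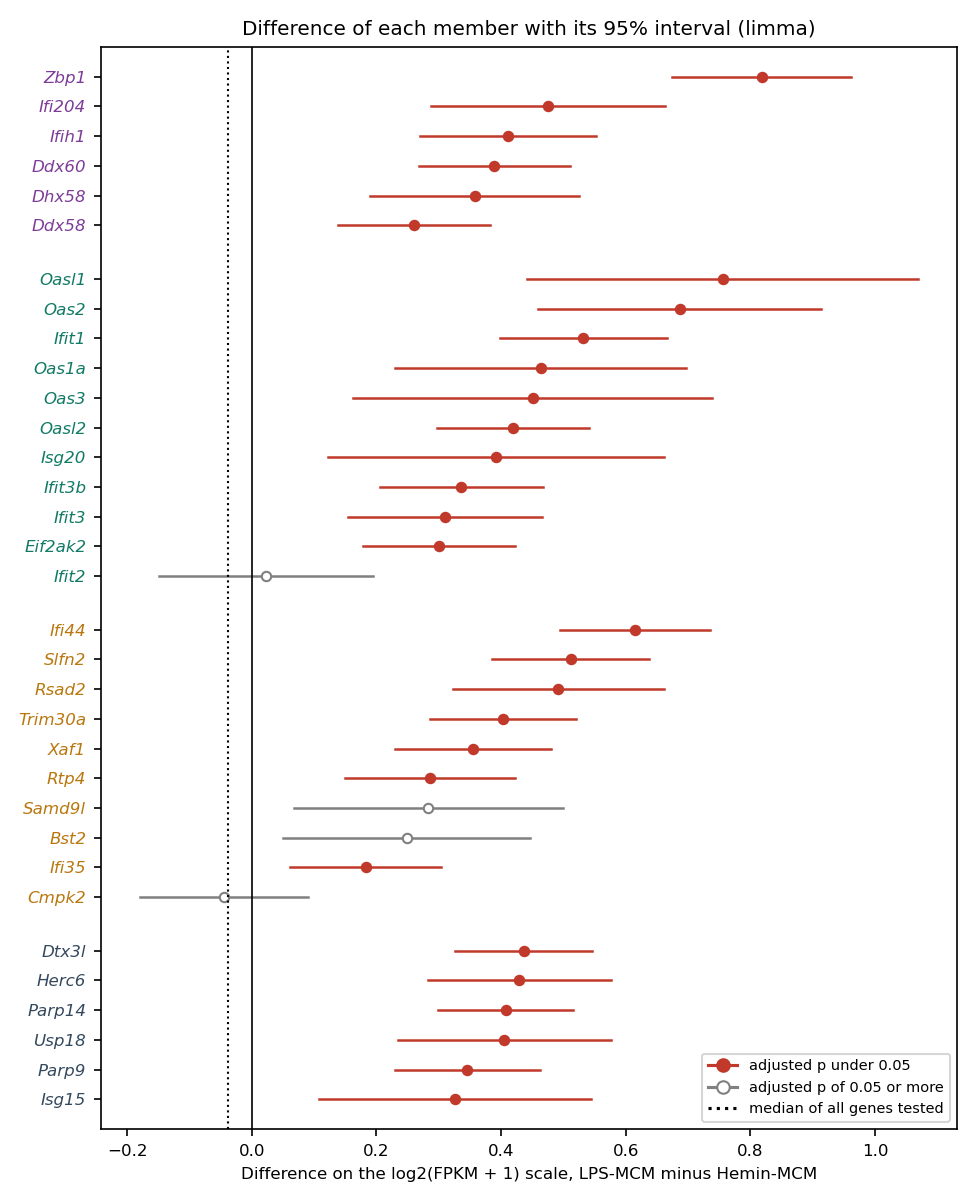
Difference of each measured member between LPS-MCM and Hemin-MCM on the log2(FPKM + 1) scale (point) with its 95% interval from limma (line), in the same order of classes. Red points passed an adjusted p of 0.05 and open grey points did not, and the dotted line is the median of all genes tested, at -0.04; the points run from -0.04 (Cmpk2) to 0.82 (Zbp1).

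Among the other effectors, Ifi44, Slfn2 and Rsad2 had the largest differences. Ifi44, a cytoplasmic protein induced by interferon, was at 73.6, 78.3 and 75.1 FPKM in LPS-MCM and at 52.2, 46.8 and 48.3 FPKM in Hemin-MCM (0.61 ± 0.05, limma adjusted p = 3.53e-05). Slfn2, a schlafen protein known for keeping T cells quiescent, was at 56.0, 60.1 and 64.3 FPKM in LPS-MCM and at 41.0, 42.2 and 42.3 FPKM in Hemin-MCM (0.51 ± 0.06, 0.000157). In both genes the spread within a group was small beside the gap between the groups. Rsad2 encodes viperin, which turns CTP into a chain terminator of viral polymerases, and was at 22.0, 25.5 and 26.1 FPKM in LPS-MCM and at 16.5, 16.3 and 18.6 FPKM in Hemin-MCM (0.49 ± 0.08, 0.00124).

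Cmpk2, a mitochondrial nucleotide kinase whose gene lies 12.7 kb from Rsad2 on chromosome 12 (26469117 to 26479837), did not pass (-0.04 ± 0.06, limma adjusted p = 0.666). It was at 22.3, 24.7 and 24.5 FPKM in LPS-MCM and at 23.5, 26.1 and 24.1 FPKM in Hemin-MCM. The groups overlapped, and the 95% interval of the difference ran from -0.18 to 0.09.

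Bst2 (chromosome 8, 71534255 to 71537472) encodes tetherin, which holds budding virus at the cell surface, and was the most abundant member. It was at 434, 511 and 400.6 FPKM in LPS-MCM and at 348, 380.3 and 400.3 FPKM in Hemin-MCM. The lowest LPS-MCM library and the highest Hemin-MCM library were almost equal, and the difference of 0.25 ± 0.09 did not pass (limma adjusted p = 0.077), although it did without the third LPS-MCM library (0.33, 0.0196) and after a correction for GC content (0.27, 0.0283). The adjusted p of Bst2 ran from 0.0196 to 0.234 over the alternatives. Samd9l, which restrains translation of viral RNA, was at 20.8, 22.2 and 27.5 FPKM in LPS-MCM and at 20.6, 17.5 and 19.1 FPKM in Hemin-MCM (0.28 ± 0.10, 0.0663). The third LPS-MCM library stood above the rest in Samd9l, and the gene passed without the first LPS-MCM library (0.0334), with the replicate number as a block (0.0465) and under median-of-ratios scaling (0.0374), within a range of 0.0334 to 0.208 over the alternatives.

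The other members of this class were higher. Trim30a, which dampens Toll-like receptor signalling, was at 54.3, 59.2 and 60.1 FPKM in LPS-MCM and at 44.5, 42.8 and 43.0 FPKM in Hemin-MCM (0.40 ± 0.05), and its close relative Trim30d, with which it may share reads, differed by 0.47 ± 0.07. Xaf1, which binds the apoptosis inhibitor XIAP, differed by 0.35 ± 0.06, and Rtp4, a receptor transporter protein, by 0.29 ± 0.06. Ifi35, which interacts with the protein Nmi, had the smallest difference among the called members, at 37.2, 38.8 and 36.6 FPKM in LPS-MCM and 35.1, 32.0 and 31.8 FPKM in Hemin-MCM (0.18 ± 0.05, limma adjusted p = 0.0391). That call was lost without the first (0.0867) or the second LPS-MCM library (0.107) and without the second (0.141) or the third Hemin-MCM library (0.158). It was also lost without the filter (0.0571), without the mean-variance trend (0.0667) and with the replicate block (0.0535), and the alternatives reached down to 0.019.

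The 6 genes of the ubiquitin-like and ADP-ribose system were all higher, by 0.33 to 0.44. Isg15, the ubiquitin-like protein itself (chromosome 4, 156199424 to 156200818), was at 247, 284 and 206 FPKM in LPS-MCM and at 198, 186 and 198 FPKM in Hemin-MCM. The third LPS-MCM library was close to the Hemin-MCM libraries, and the difference of 0.33 ± 0.10 passed narrowly (limma adjusted p = 0.0404). The call was lost when any library other than the third LPS-MCM library was left out (0.0867 to 0.125), without the filter (0.123) and without the mean-variance trend (0.0618), while leaving out the third LPS-MCM library gave 0.00145, the smallest value among the alternatives. Usp18, which removes Isg15 from proteins and restrains the interferon receptor, was at 48.5, 57.1 and 45.9 FPKM in LPS-MCM and at 36.8, 36.7 and 39.6 FPKM in Hemin-MCM (0.41 ± 0.08, 0.00398). Herc6, the main ligase for Isg15 in mouse, differed by 0.43 ± 0.07.

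The Dtx3l and Parp9 proteins form a complex that, in human cells, adds ADP-ribose to ubiquitin, and together with Parp14, another ADP-ribosyltransferase, they had the smallest standard errors of the module. Dtx3l was at 29.6, 31.3 and 30.6 FPKM in LPS-MCM and at 22.8, 22.4 and 21.7 FPKM in Hemin-MCM. Parp14 was at 62.5, 64.8 and 64.2 FPKM in LPS-MCM and at 50.1, 47.1 and 46.5 FPKM in Hemin-MCM. No library of one group came near the other group in either gene, with differences of 0.44 ± 0.05 for Dtx3l and 0.41 ± 0.05 for Parp14 (limma adjusted p = 0.000172 and 0.000241). Parp9 was at 58.2 ± 1.67 FPKM in LPS-MCM and 45.6 ± 2.30 FPKM in Hemin-MCM, a difference of 0.35 ± 0.05.

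Several members lie side by side in the genome. Within 100 kb of each other (RefSeq, GRCm38.p6) were 12 pairs, whose log2 ratios per library were compared between the groups with two-sided exact permutation tests, where 3 against 3 libraries cannot give a p under 0.1. The ratio did not overlap between the groups in 6 pairs, each with an exact permutation p of 0.1 and 0.2 after Benjamini-Hochberg adjustment over the 12 pairs, so none passed. Over all 21441 pairs of tested genes within 100 kb, the ratio did not overlap between the groups in 36.1%, and 5 of the 6 pairs share Ifit1 or Ifit2, so they are not separate observations. The widest gap was between Rsad2 and Cmpk2, where the log2 ratio was -0.02, 0.045 and 0.09 in LPS-MCM and -0.486, -0.652 and -0.358 in Hemin-MCM. In the Ifit cluster of chromosome 19 (34550550 to 34650009), the log2 ratio of Ifit2 to Ifit1, 64.4 kb apart, was -2.60, -2.55 and -2.45 in LPS-MCM and -2.12, -2.04 and -1.90 in Hemin-MCM. The differences of members with an ISRE core in the promoter window (median 0.39, range 0.25 to 0.53, 13 genes) lay within the range of those without one (median 0.41, range -0.04 to 0.76, 12 genes).

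**Figure D3:**
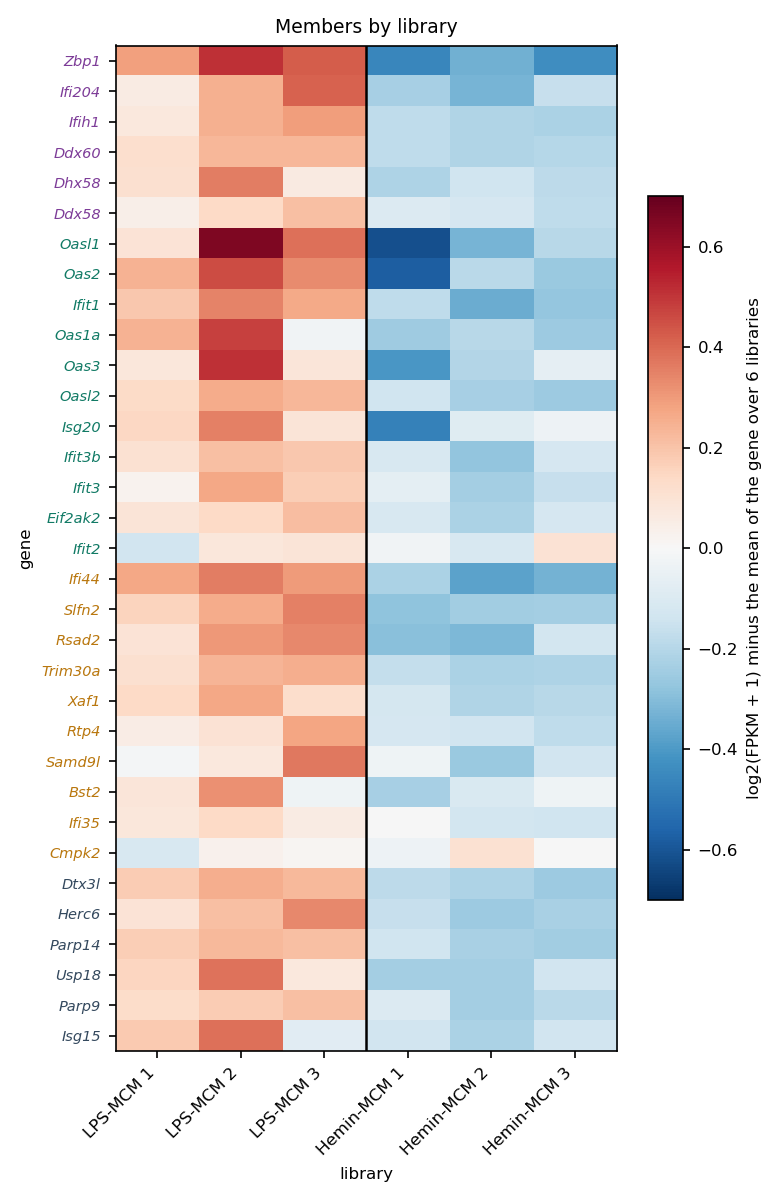
Each measured member (rows, in the order of classes) in each library (columns), as log2(FPKM + 1) minus the gene's mean over the 6 libraries; red is above and blue below that mean. The 3 LPS-MCM columns are mostly red and the 3 Hemin-MCM columns mostly blue. The second and the third LPS-MCM columns differ from each other in several members, among them Isg15, Oas1a, Oas3, Usp18, Bst2 and Samd9l.

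Within the LPS-MCM group the members ranked the libraries unevenly. The second library was the highest in 21 members and the third in 12, while the first was the lowest in 25. This ranking was not counted over all genes, so it cannot be called particular to the members. They share the libraries, so these counts are not separate observations. The members' deviations of a library from the other 2 of its group were set against the GC content of the longest GENCODE vM21 transcript, which ran from 38.8 to 57.4%. Pearson's r over the 33 members, which share the libraries and so are no replicates, was 0.174, 0.725 and -0.696 for the first, the second and the third LPS-MCM library, and -0.618, 0.583 and 0.359 for the first, the second and the third Hemin-MCM library. Within a group the deviations of a gene cancel out, so opposite r in libraries of the same group are partly fixed in advance. Over 11503 tested genes with a transcript entry, r was 0.012, 0.348 and -0.305 in the LPS-MCM libraries and -0.339, 0.166 and 0.205 in the Hemin-MCM libraries. With the log of transcript length, r over the members was -0.282, -0.45 and 0.528 in the LPS-MCM libraries and 0.23, -0.107 and -0.241 in the Hemin-MCM libraries. The GC-rich Isg15 (52.8%), Oas1a (52.0%) and Bst2 (55.3%) were low in the third LPS-MCM library, and Samd9l, the member poorest in GC (38.8%), was high there. Not every member followed this: Oasl1, at 56.3% GC, was at 9.51 FPKM there, between the first (7.61 FPKM) and the second LPS-MCM library (11.7 FPKM). With the GC trend of each library removed, an alternative chosen after seeing the data, 30 members were called higher and none lower, and the median difference was 0.38.

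**Figure D4:**
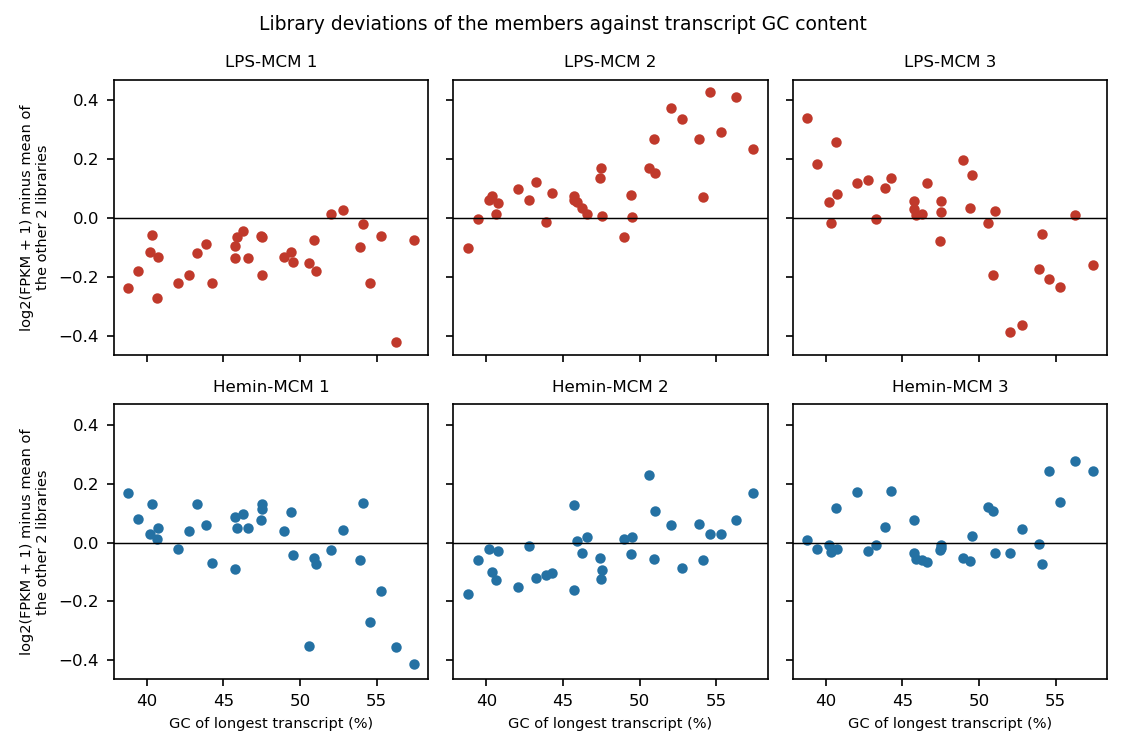
Deviation of each measured member in a library from the mean of the other 2 libraries of its group (log2(FPKM + 1) scale) against the GC content of its longest transcript (%), with LPS-MCM in the upper and Hemin-MCM in the lower row. The points slope upward in the second LPS-MCM library (r = 0.725) and downward in the third LPS-MCM library (r = -0.696). These slopes are not separate observations, since the deviations of a gene within a group cancel out.

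Among genes that lead to interferon production and relay its signal, some were higher, some lower and most did not pass. Of 12 tested genes of upstream sensing, 4 were higher in LPS-MCM, namely the kinase genes Ikbke (0.56 ± 0.06) and Tbk1 (0.37 ± 0.05), the receptor gene for RNA duplexes Tlr3 (0.39 ± 0.07) and the adaptor gene Ticam2 (0.43 ± 0.13). The receptor gene for viral RNA Tlr7 (-0.28 ± 0.07) and Sting1 (-0.35 ± 0.09), the adaptor for cytoplasmic DNA, were lower. Another 6, among them Tlr4 (-0.19 ± 0.08) and Ticam1 (-0.04 ± 0.08), did not pass. The median of the tested genes of that list was 0.05. Its genes Tlr9 and Cgas fell below the filter and were not tested. Tlr9 was at 0.42 FPKM in LPS-MCM and 1.18 FPKM in Hemin-MCM, and Cgas at 0.588 FPKM in LPS-MCM and 1.10 FPKM in Hemin-MCM. Of all genes tested, 6.72% were higher and 13.8% lower. Of 15 tested genes of the ligands, receptors and signal chain, 6 were higher, none was lower and the median was 0.15. Irf7, the factor that amplifies interferon production, was at 209, 270.5 and 226 FPKM in LPS-MCM and at 98.5, 114 and 111 FPKM in Hemin-MCM (1.11 ± 0.09), a larger difference than that of any member. The feedback inhibitor gene Socs1 was at 8.69, 9.54 and 9.43 FPKM in LPS-MCM and at 3.92, 4.56 and 3.11 FPKM in Hemin-MCM (1.08 ± 0.10). Jak2 (0.67 ± 0.06), Socs3 (0.43 ± 0.05), Ifnar2 (0.34 ± 0.06) and Stat2 (0.28 ± 0.05) were also higher. Irf9, the DNA-binding partner of Stat2, did not pass (0.16 ± 0.05, limma adjusted p = 0.0573). The interferon beta gene Ifnb1 was listed at 0 in the first LPS-MCM library and at 0.0363 and 0.0341 FPKM in the others, and in Hemin-MCM it was at 0, 0.0731 and 0 FPKM, too low to be tested.

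A further list of 44 interferon-stimulated genes outside the module held 40 tested genes, of which 26 were higher in LPS-MCM, 1 was lower and 13 did not pass, with a median of 0.30. The shares over all genes tested were 6.72% higher and 13.8% lower. Slfn1, a relative of Slfn2, had the largest difference, at 3.73, 4.79 and 4.14 FPKM in LPS-MCM and 0.61, 1.23 and 0.652 FPKM in Hemin-MCM (1.52 ± 0.13). The p200 family genes Ifi205 (0.76 ± 0.11) and Ifi211 (0.62 ± 0.07), Phf11d (0.70 ± 0.08), Slfn8 (0.69 ± 0.08), Helz2 (0.66 ± 0.07), Ly6e (0.65 ± 0.09) and Ifitm1 (0.59 ± 0.08) were higher by at least 1.5-fold on this scale. The other 18 higher genes, by 0.17 to 0.49, were Sp100, Trim30d, Ifitm2, Apol9a, Ube2l6, Rnf213, Trim21, Zc3hav1, Slfn5, Parp12, Parp10, Apol9b, Mov10, Trim34a, Trim12a, Lgals3bp, Adar and Shisa5. Ube2l6, the enzyme that passes Isg15 to its ligase, was among them (0.38 ± 0.05), and Uba7, the enzyme that activates Isg15, did not pass (0.09 ± 0.07). The lower gene was Sp110 (-0.50 ± 0.15). Ifi27, a mitochondrial protein gene that interferon induces, was at 146 ± 28.4 FPKM in LPS-MCM and 184 ± 5.34 FPKM in Hemin-MCM and did not pass (-0.34 ± 0.11, limma adjusted p = 0.0581).

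**Figure D5:**
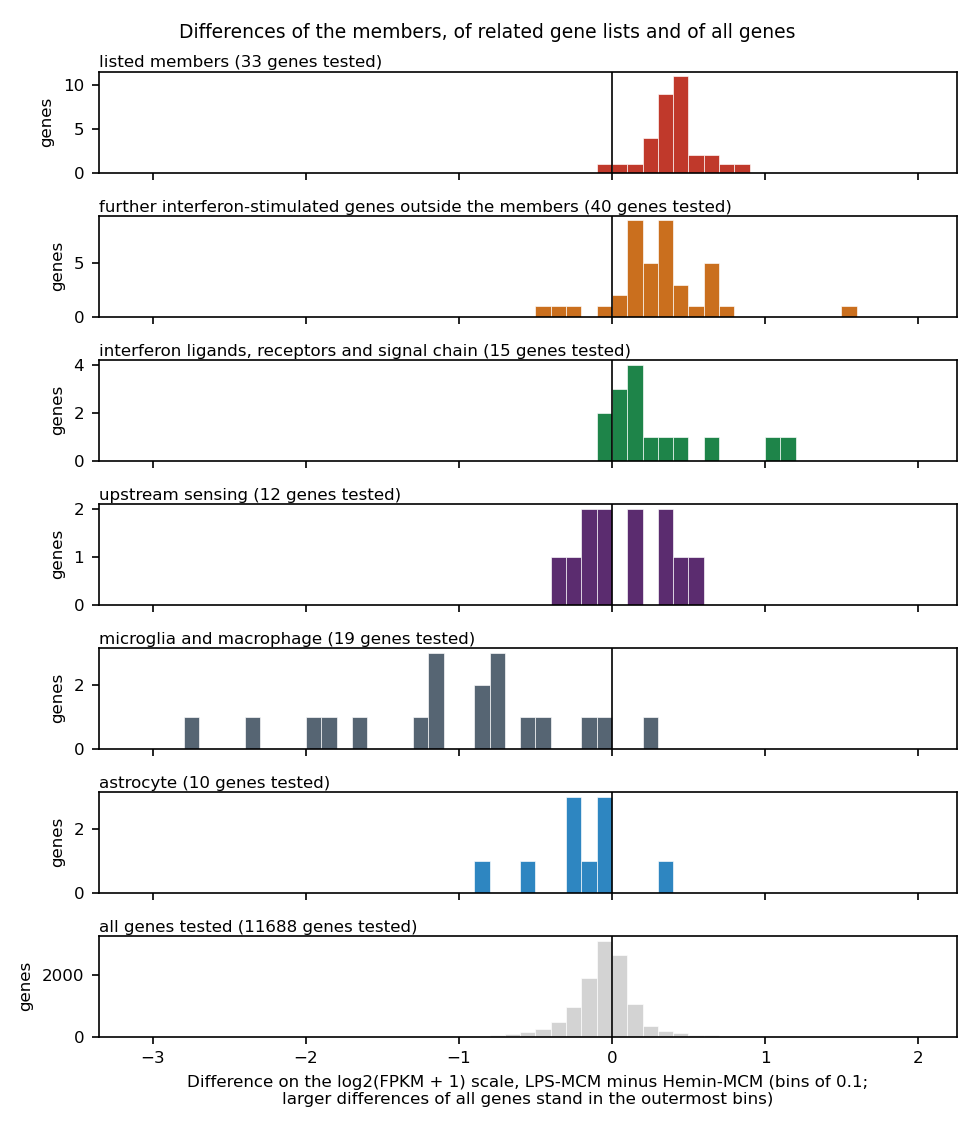
Histograms of the differences on the log2(FPKM + 1) scale (LPS-MCM minus Hemin-MCM, bins of 0.1, vertical axis in genes) for the 33 members, 3 related lists, microglia and astrocyte markers, and all 11688 genes tested. The members form a narrow group around 0.40, the further interferon-stimulated genes lie around 0.30, and most microglia markers lie below 0, with a median of -0.90.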

How the data were processed

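RNA was read as stranded mRNA libraries, per the labels' protocols. The authors deposited gene-level FPKM values, with mm10 and DESeq named without version in the submitters' processing notes; aligner, counter and annotation were not given in the sources used here. The 6 columns of LPS-MCM and Hemin-MCM were matched to sample titles by treatment word and number. Another 3 columns of values match no title and were used in no step, so 3 of the 9 samples were not analysed here.

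No count model was fitted, since FPKM values are not counts. Values were turned into log2(FPKM + 1), genes that averaged 1 FPKM or more across the 6 libraries were kept (11688 of 17730), and limma 3.58.1 in R 4.3.3 was fitted across all genes (mean-variance trend, 1 mean per group, 4 residual degrees of freedom, two-sided, Benjamini-Hochberg, threshold 0.05). This scale understates changes of low genes. The fit was tested on simulated data first. Depth was estimated from the steps of low values. Intervals are limma's 95% intervals. Estimated fragment counts use the lower quartile of that depth and the longest transcript, and they cover counting error only. Exact permutation tests used scipy 1.17.1.

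The members, gene lists and tests were chosen with earlier results of these data known. All members in the table are named; per-library values are given for those called with a difference of at least 0.5, those at 100 FPKM or more, those not called, and further examples of each class. From the related lists of pathway genes, called genes are named, while called cell type markers are named only in part. Irf9, Ifnb1, Uba7, Oas1g, Ifi27, Tlr4, Ticam1, Tlr9, Cgas, Itgam, Ptprc and S100b were named after their values were seen. Coordinates and promoters are RefSeq, GRCm38.p6, the assembly of mm10, joined by gene identifier. Tried as alternatives were the pseudocount, 2 other filters, 2 other scalings, no trend, the replicate number as a block, leaving out each library, and a correction for GC content. Some genes of the related lists are counted but not reported here by name.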

Additional observations from a re-analysis of the deposited data

How the results depend on the processing

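Across the 14 alternatives, 24 to 30 members were called higher and none was called lower. Of the 29 members called, 23 kept the call in every alternative that tested them, and Ifit3, Isg15, Isg20, Oas1a, Oas3 and Ifi35 lost it in at least 1; Oas1a lost it when low genes were kept (limma adjusted p = 0.0521, range over the alternatives 0.000627 to 0.0521), where 17255 genes were tested and 24 members called. Leaving out 1 library at a time gave 24 to 29 members. Over all genes, 786 were higher and 1614 lower, and leaving out 1 library gave 1058 (without the third Hemin-MCM library) to 1652 lower genes; the cause was not tested. Median-of-ratios scaling moved the median of all genes from -0.04 to 0.00 and that of the members to 0.45, with none lower. The 2 members without a difference changed sign: Ifit2 was at -0.0153 after the GC correction and between -0.0274 and 0.0964 with 1 library left out, and Cmpk2 between -0.0746 and 0.0002. Samples with the same replicate number correlated by 0.08, 0.107 and -0.106 in their deviations, so the numbers were not taken as pairs. With the replicate block, 29 members were called (Samd9l gained, Ifi35 lost) and 752 genes were higher and 1578 lower. A mean of 5 FPKM as the filter gave no value for Isg20 and Oas3. Isg20 and Oas3 had the fewest estimated fragments, 68 and 285 in their lowest library. The part of depth in their lost calls was not tested.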
